A study of Mus musculus with 3 samples.

Results

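Summits of Tbx4 and Hoxc10 ChIP-seq were examined over the Hoxc gene cluster of the mouse and its flanks, which include the gene Gpr84. The 10 genes are Hoxc13, Hoxc12, Hoxc11, Hoxc10, Hoxc9, Hoxc8, Hoxc6, Hoxc5, Hoxc4 and Gpr84. The cluster was placed on chromosome 15 from 102921131 to 103036856, the window reached 500 kb beyond it on each side, from 102421131 to 103536856, and its edges were set by gene positions. Gpr84 was included with the high-scoring site beside it already known. The window held 16 of the 6394 listed summits, 7 of 4780 for Tbx4 and 9 of 1614 for Hoxc10. The tissue was the hindlimb bud of wild type CD1 embryos at stage e11.5. Tbx4 was precipitated with a homemade antibody (1695a) and Hoxc10 with an Abcam antibody (ab153904). A Hoxc10 sample with a Santa Cruz antibody was not analysed here. Each factor was represented by 1 sample and 1 list, so that no difference between the factors or between places has a replicate check, and the files hold no expression values by which the tissue could be checked.

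Hox genes encode homeodomain transcription factors that pattern the body axis and the limbs, and within a cluster they lie in the order of their expression along the axis. The Hoxc genes numbered highest act most posteriorly, and those around Hoxc10 and Hoxc11 are expressed in the hindlimb bud and not in the forelimb bud. Tbx4 is a T-box factor of the hindlimb. Hox proteins often bind DNA together with the homeodomain cofactors of the Pbx family. Gpr84 encodes a receptor for medium-chain fatty acids, best known from cells of the immune system, and is no part of the Hox cluster.

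Of the 43 promoter sequences of RefSeq (GRCm38.p6, 250 bases before to 50 after a gene start) that lie wholly in the window, 1 held a Tbx4 summit and 0 held a Hoxc10 summit. Over the whole table of 32851 promoters, 289 (0.88%) held a Tbx4 summit and 42 (0.128%) a Hoxc10 summit. The promoter with the Tbx4 summit was that of the long non-coding RNA Gm41406, on the reverse strand within the coding gene Copz1, at chr15:103289571-103289870. It is printed because the summit, 103289676, fell 56 bases before this listed start, in a run of 12 bases, in capitals, that matches overlapping Pbx-Hox motifs.
Gm41406 promoter: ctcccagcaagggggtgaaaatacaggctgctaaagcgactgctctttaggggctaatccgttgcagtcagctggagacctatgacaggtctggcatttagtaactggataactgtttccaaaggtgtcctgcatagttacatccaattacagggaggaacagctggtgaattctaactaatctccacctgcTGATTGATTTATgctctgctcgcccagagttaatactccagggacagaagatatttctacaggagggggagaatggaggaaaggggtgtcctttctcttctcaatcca
The annotated extent of Gm41406, from 103286362 to 103290471, reaches beyond this start and also holds the summit. The motif TGATTGAT began at base 193 and TGATTTAT at base 197, counted from the 5′ end, and the summit was base 195. Both strands were searched for 7 motifs, and the 2 that matched here share bases. The share of promoters with a match to any of the 7 was not computed. The shares of single motifs therefore do not say how unusual a match is. TGATTGAT was found in 0.746% of all promoters and TGATTTAT in 0.977%, and 6 promoters (0.0183%) held both. Among the 289 promoters with a Tbx4 summit, 3 (1.04%) held TGATTGAT and 5 (1.73%) held TGATTTAT, and among the 42 with a Hoxc10 summit 3 (7.14%) and 4 (9.52%) did. The T-box motifs GGTGTGA and AGGTGTGA, which overlap each other and are found in 3.98% and 1.28% of promoters, had no match here. GGTGTGA was found in 18 (6.23%) of the promoters with a Tbx4 summit and in 2 (4.76%) of those with a Hoxc10 summit. There was no match either to the posterior Hox motifs TTTATGG (2.75%), TTTACGA (0.597%) and TTTATTG (4.6%). Among the 42 promoters with a Hoxc10 summit, 6 (14.3%) held TTTATGG, 1 (2.38%) TTTACGA and 1 (2.38%) TTTATTG. Among the 289 with a Tbx4 summit, the counts were 11 (3.81%), 5 (1.73%) and 8 (2.77%). The Hoxc10 summit nearest to the Tbx4 summit in the Gm41406 promoter was 6323 bp away. The sequence is the reference and not that of CD1 mice, and a match of letters is not a binding site. Of the 10 genes, Hoxc4 and Gpr84 were matched in the table, and the promoters of these 2 held no match to any of the 7 motifs and no summit. The genes from Hoxc13 to Hoxc5 were not matched, so the counts over the 43 promoters do not speak for theirs.

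Summits also lay beside both microRNAs of the cluster. Their mature sequences from RefSeq (GRCm38.p6) are given with the seed, bases 2 to 8, in capitals, to identify the RNAs next to the sites.
mmu-miR-196a-5p: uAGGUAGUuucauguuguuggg
mmu-miR-196a-2-3p: uCGGCAACaagaaacugccuga
mmu-miR-615-5p: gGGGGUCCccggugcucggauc
mmu-miR-615-3p: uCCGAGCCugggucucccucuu
The miR-196 family is known for repressing Hox messenger RNAs. The hairpin of Mir196a-2, at chr15:102973350-102973434, had a Tbx4 summit 1313 bp upstream of it. Mir615 lies within Hoxc5, and the shared site described below fell 298 bp (Tbx4) and 272 bp (Hoxc10) upstream of its hairpin at chr15:103014910-103015001. The 4 seeds differ from one another.

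The score of a summit is the authors' value from MACS2 on a −log10 scale, and no source used here says whether it stems from a p-value or a q-value. Scores were ranked only within a list. In the Hoxc window the Tbx4 scores ran from 2.94 to 317.06 with a median of 10.21, against a median of 3.67 in the whole Tbx4 list, and 5 of the 7 lay above the median of the list. The Hoxc10 scores ran from 7.02 to 178.68 with a median of 15.53, against 7.72 in the whole Hoxc10 list, and 8 of the 9 lay above it. The window of 1115726 bp held 6.27 Tbx4 summits per Mb, 3.24 times the 1.94 per Mb of the whole list, and 8.07 Hoxc10 summits per Mb, 12.3 times the 0.657 per Mb of the whole list. The window was measured over its whole length and each list over the span from its first to its last summit on every chromosome. With a reach of 1000 kb the Hoxc10 ratio was 6.47 and the Tbx4 ratio 2.19. A reach of 250 kb ends before Gpr84 and left 4 Hoxc10 summits. The ratios were then 9.89 for Hoxc10 and 4.19 for Tbx4. These figures describe 1 list each and were not tested.

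**Figure D1:**
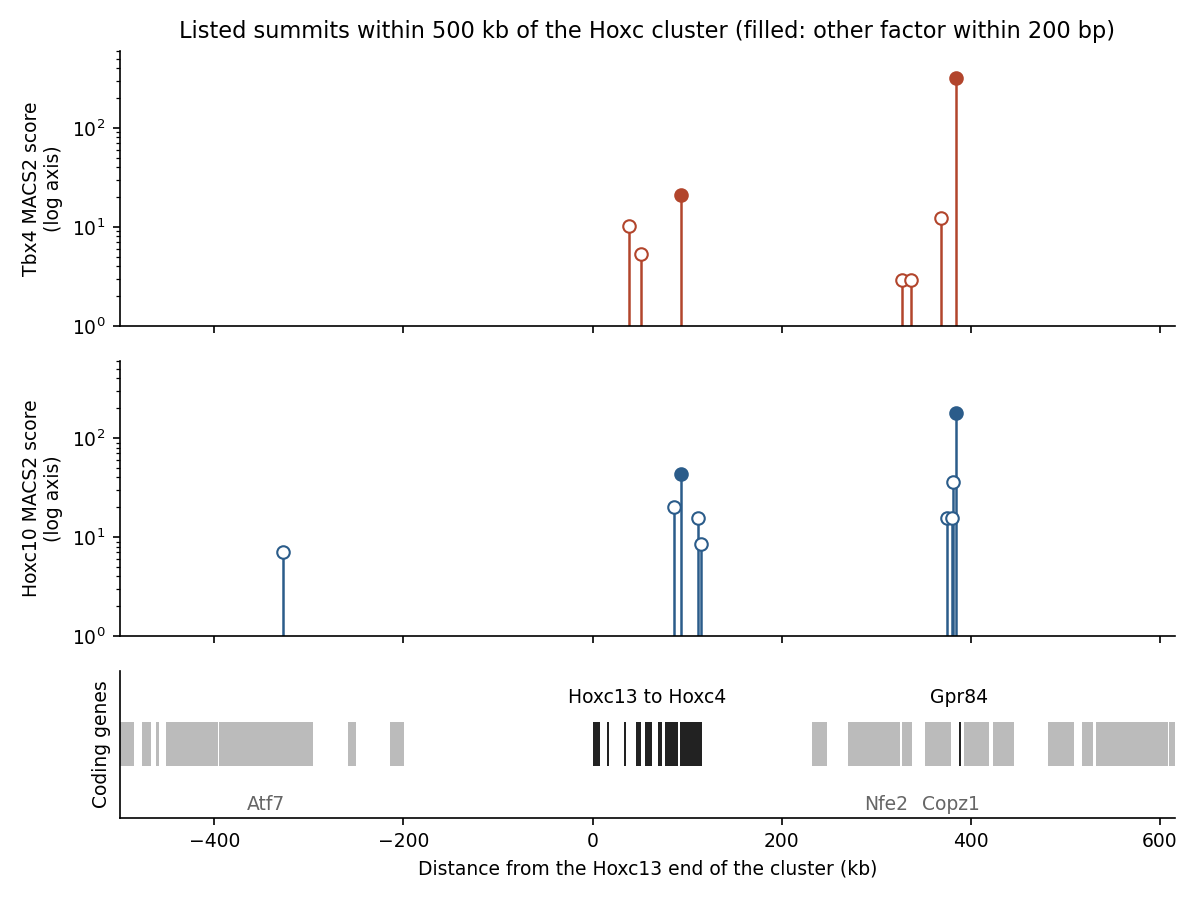
MACS2 score of each listed summit (log axes, Tbx4 above, Hoxc10 below) against its distance in kb from the Hoxc13 end of the cluster, with protein-coding genes as boxes (black for the 10 genes, grey for others). Filled points have a summit of the other factor within 200 bp. The summits gather inside the cluster and next to Gpr84, and 1 Hoxc10 summit lies far to the left, inside Atf7.

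The listed summits stood in 2 main places, the cluster itself and the 37783 bp from Copz1 to Gpr84. The cluster held 3 Tbx4 and 4 Hoxc10 summits in 115726 bp. The stretch from Copz1 to Gpr84 held 2 Tbx4 and 4 Hoxc10 summits. Between them, 236031 bp held 2 listed Tbx4 summits of low score and no listed Hoxc10 summit. MACS2 numbered its peaks along the chromosome. The Hoxc10 numbers go from 1334 in Hoxc4 to 1340 in Copz1, and the Tbx4 numbers from 14970 in Hoxc5 to 14973 in Nfe2. Peaks between these summits were therefore numbered but not listed, and their positions are unknown. Below the cluster there was 1 Hoxc10 summit in 500 kb and no Tbx4 summit, and above Gpr84 neither list had a summit in the remaining 226186 bp. In neither list did any summit of chromosome 15 lie above the site at Gpr84. The length of chromosome left beyond that site was not taken into account. The nearest summits outside the window were a Tbx4 summit of score 5.3 at 102249409, 171722 bp below its lower edge, and a Hoxc10 summit of 14.69 at 101093325, 1327806 bp below. The summit closest to an edge on the inside was the Hoxc10 summit in Atf7, 172499 bp from it.

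Within the cluster all listed Hoxc10 summits lay from Hoxc6 to Hoxc4, and the listed Tbx4 summits lay beside Hoxc11 and Hoxc10 and inside Hoxc5. From Hoxc13 to just below Hoxc6 (77095 bp) there were 2 Tbx4 summits and 0 Hoxc10 summits. From Hoxc6 to Hoxc4 (38631 bp) there were 1 Tbx4 summit and 4 Hoxc10 summits. The division at Hoxc6 was chosen after the positions were seen, and the difference was not tested. The Hoxc10 peak numbers go from 1327 in Atf7 to 1331 in Hoxc6, so peaks between these summits were numbered but not listed. Their positions are unknown, and some may lie from Hoxc13 to Hoxc8.

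Hoxc13, needed for hair and nails, and Hoxc12 had no summit inside, and their nearest listed Tbx4 summit was 31144 and 21349 bp away. The lncRNA Hotair, transcribed between Hoxc12 and Hoxc11, lay 12012 bp from that same summit. It stood at 102959958, between Hoxc11 and Hoxc10, 3257 bp from Hoxc11 and 6838 bp from Hoxc10. Its score of 10.21 ranked 641 of 4780, tied with 111 others. Hoxc11 and Hoxc10 both encode posterior factors of the hindlimb bud. A second Tbx4 summit, at 102972037, was 139 bp outside the upper end of the Hoxc10 gene, which runs from 102966796 to 102971898. It scored 5.3, rank 1506 with 370 ties.

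The Hoxc10 gene thus had a Tbx4 summit beside it but none of its own factor. The nearest Hoxc10 summit, inside Hoxc6, was 35412 bp away. Hoxc9, at 4995 bp from the nearest Tbx4 summit, and Hoxc8, at 13035 bp from the nearest Hoxc10 summit, had none inside and were nearest to none. Together with Hoxc12, they were the 3 of the 10 genes to which no summit of either factor was assigned as nearest. A count of 0 means that no site was listed and not that the gene was unbound, since the lists are selections.

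The anterior genes held the listed Hoxc10 summits of the cluster. Inside Hoxc6 (102998226 to 103011882), 1 Hoxc10 summit at 103007310 scored 19.94, rank 180 of 1614 with 13 ties, and the nearest Tbx4 summit was 7302 bp away. Hoxc6 is expressed further forward along the axis than the posterior genes. Hoxc4 (103018097 to 103036856), the most anterior member of the cluster, held 2 Hoxc10 summits, at 103032902 with a score of 15.53 (rank 263, 33 ties) and at 103035277 with 8.43 (rank 709, 78 ties). They flanked the Hoxc4 start listed in the promoter table, 103034395 on the forward strand, at distances of 1493 bp before it and 882 bp after it. Both also lay inside Gm30528, an lncRNA on the reverse strand that overlaps Hoxc4. The nearest Tbx4 summit, the one in Hoxc5, was 18290 and 20665 bp away.

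Hoxc5 (103014008 to 103017429) was the only one of the 10 genes with summits of both factors inside. The Tbx4 summit at 103014612 scored 20.91 and ranked 216 with 22 ties, above 95% of its list. The Hoxc10 summit at 103014638 scored 43.3 and ranked 28 with 3 ties, above 98.1% of its list. The summits were 26 bp apart and 604 and 630 bp from the lower end of the gene. Of the 519 Tbx4 summits with a Hoxc10 summit within 200 bp, 124 (23.9%) were as close or closer to it, 69 had a higher Tbx4 score and 17 a partner with a higher Hoxc10 score. For each factor this was the highest score inside the cluster.

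**Figure D2:**
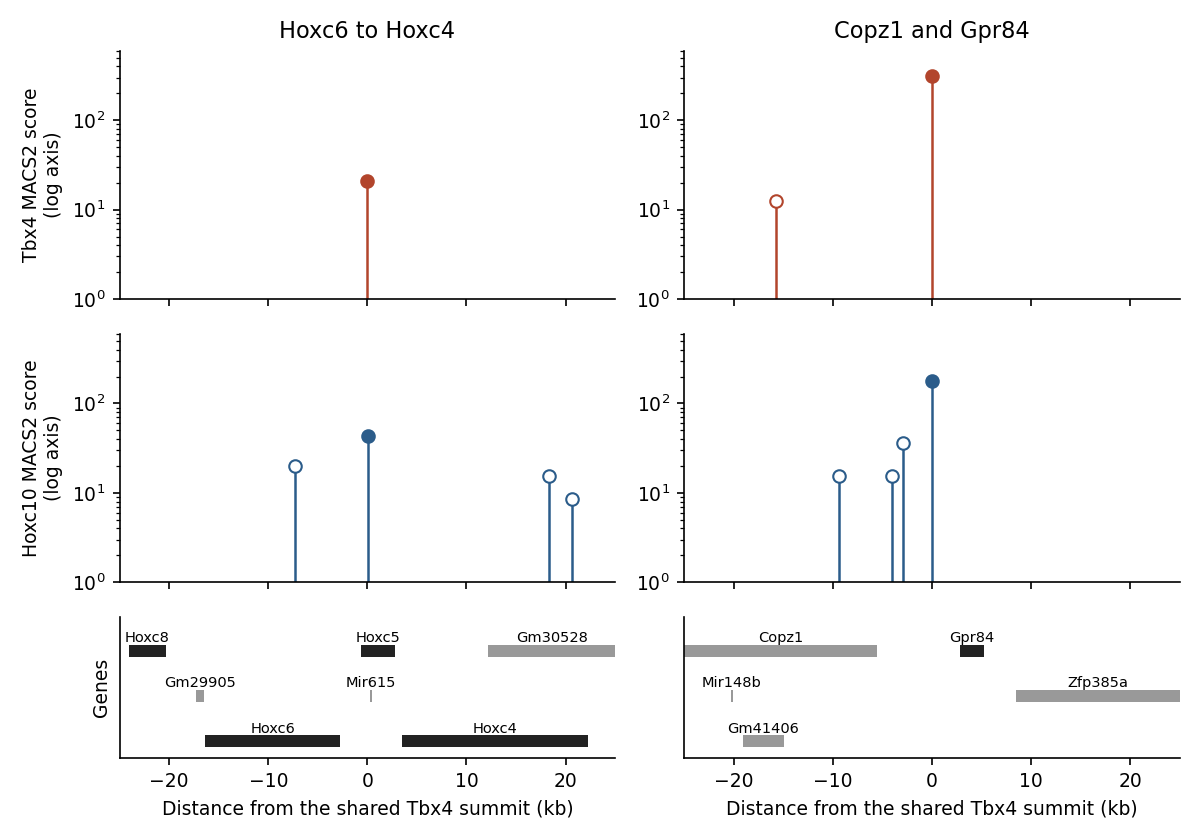
MACS2 scores (log axes, Tbx4 above, Hoxc10 below) within 25 kb of the shared Tbx4 summit at Hoxc5 (left) and next to Gpr84 (right), with coding and non-coding genes as boxes (black for Hoxc genes and Gpr84). Filled points have the other factor within 200 bp. Each stretch has 4 Hoxc10 summits, 1 of them shared with Tbx4, and those at Gpr84 stand closer together.

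At Gpr84 the shared site had the highest score of the Tbx4 list and the next to highest of the Hoxc10 list. The Tbx4 summit at 103305429 scored 317.06, rank 1 of 4780, and the Hoxc10 summit at 103305413 scored 178.68, rank 2 of 1614. Of the pairs in the lists, 76 (14.6%) were as close as these 16 bp or closer, none had a higher Tbx4 score and 1 had a higher Hoxc10 score. Gpr84 (103308233 to 103310670) is transcribed on the reverse strand, so that both summits lay beyond its far end and not at its promoter, 2804 and 2820 bp outside the gene and 5009 and 5025 bp from its listed start at 103310438. On the other side lies Copz1 (103272888 to 103299865), a subunit of the coat of Golgi transport vesicles, which is transcribed on the forward strand. The site was 5564 bp (Tbx4) and 5548 bp (Hoxc10) past its end. It therefore lay between the ends of 2 convergent genes, in a gap of 8367 bp, and 271377 bp separate the Hoxc cluster from Gpr84.

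The same gap held further Hoxc10 summits. Those at 103302501 and 103301352 scored 35.74 (rank 48, 3 ties) and 15.53 (rank 263, 33 ties), 2928 and 4077 bp from the Tbx4 summit. Another Hoxc10 summit, at 103295999, lay inside Copz1, 3866 bp from its end, and scored 15.47 (rank 297). With the shared one, these 4 Hoxc10 summits spanned 9414 bp. No other place in the Hoxc10 list had 4 summits within 10 kb, and 8 places, this one included, had 3. The Tbx4 list had 6 places with 4 summits within 10 kb, none of them in the window. These counts cover listed summits only. The Tbx4 peak numbers go from 14975 at 103289676 to 14979 at the shared site, so Tbx4 peaks between these were numbered but not listed. The span of 10 kb was chosen after the positions were seen. The 4 Hoxc10 summits inside the cluster spanned 27967 bp.

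Tbx4 had 3 more summits for which Gpr84 was the nearest of the 10 genes, although other genes held them. The summit of 12.42 at 103289676 (rank 479, 63 ties), in the Gm41406 promoter printed above, was inside Copz1 and 18557 bp from Gpr84. The other 2 were inside Nfe2, which encodes a transcription factor of red cells and platelets, at 103248328 and 103257614. Both scored 2.94, rank 2939 with 778 ties, which was below the median of the list. They were 116 and 789 bp from the ends of Nfe2 and 59905 and 50619 bp from Gpr84. On the far side of the cluster, the Hoxc10 summit at 102593630 lay inside Atf7, a leucine zipper factor gene, and 327501 bp from Hoxc13. It scored 7.02 (rank 868, 72 ties) and its nearest Tbx4 summit was 344221 bp away.

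By assignment to the nearest gene body, Gpr84 took 4 of the 7 Tbx4 and 4 of the 9 Hoxc10 summits. The other Tbx4 summits went to Hoxc11, Hoxc10 and Hoxc5 with 1 each. The other Hoxc10 summits went to Hoxc4 with 2 and to Hoxc5, Hoxc6 and Hoxc13 with 1 each. Of the 10 genes 1 had a Tbx4 summit inside, against 7.37% of the 21887 protein-coding genes. The count for Hoxc10 was 3, against 2.18% of these genes. Gene length was not taken into account. Of the 22 other protein-coding genes in the window, 2 held a Tbx4 summit (Copz1 and Nfe2) and 2 a Hoxc10 summit (Copz1 and Atf7).

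Co-bound pairs numbered 2, those in Hoxc5 and next to Gpr84, of which a reach of 250 kb leaves 1. They were 28.6% of the window's Tbx4 summits (2 of 7, 95% Wilson interval 8.22 to 64.1%), against 10.9% of all 4780 Tbx4 summits, and 22.2% of its Hoxc10 summits (2 of 9, 6.32 to 54.7%), against 32.1% of all 1614 Hoxc10 summits. Both intervals include the share of the whole list, cover counting error only and treat summits as independent, which neighbouring ones may not be. The table used gives no exons, so introns, exons and untranslated regions were not told apart. Protein-coding genes held 57.1% of the window's Tbx4 summits (4 of 7, 25.05 to 84.2%), against 46.5% of the list, and 66.7% of its Hoxc10 summits (6 of 9, 35.4 to 87.9%), against 38.9% of the list. The intervals are too wide to tell these shares apart from those of the lists, or to show that they are alike.

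**Figure D3:**
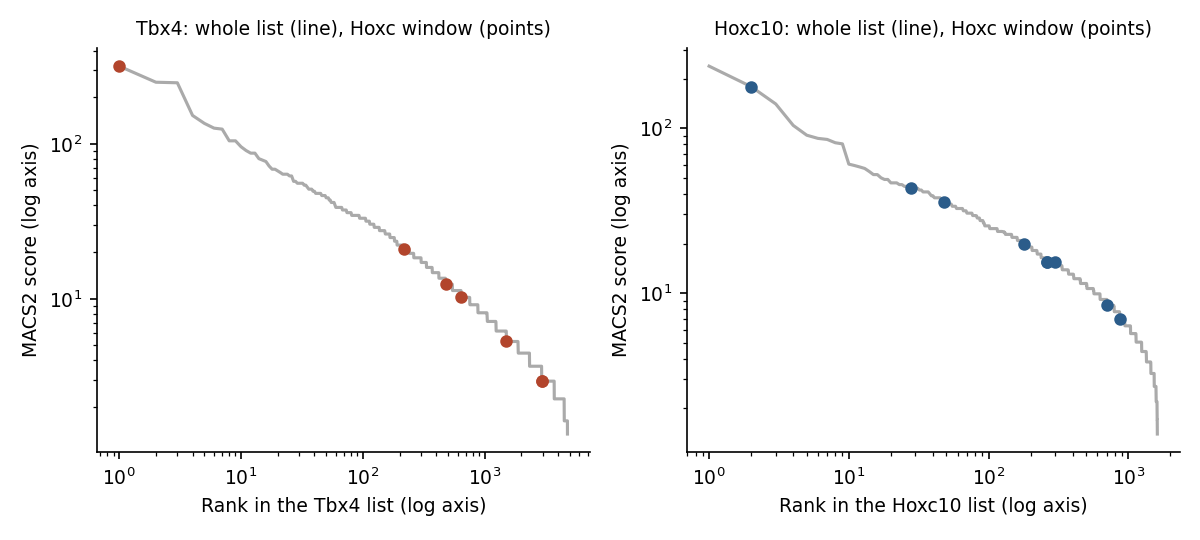
MACS2 score against rank (log axes) for all Tbx4 summits (left) and all Hoxc10 summits (right) as grey lines, with those of the Hoxc window as points; tied summits share a point. The points run from rank 1 to 2939 of 4780 for Tbx4 and from rank 2 to 868 of 1614 for Hoxc10.

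The other Hox clusters are the most alike loci. Windows reaching 500 kb beyond each cluster held 7 Tbx4 summits at Hoxc, against 8 at Hoxa, 8 at Hoxb and 16 at Hoxd, and 9 Hoxc10 summits at Hoxc, against 10 at Hoxa, 5 at Hoxb and 7 at Hoxd. Inside the clusters there were 3 Tbx4 summits at Hoxc, against 3 at Hoxa, 1 at Hoxb and 3 at Hoxd, and 4 Hoxc10 summits at Hoxc, against 7, 4 and 3. The clusters span 115726 bp at Hoxc, 105514 at Hoxa, 173939 at Hoxb and 96918 at Hoxd. Counts were not adjusted for length. The Hoxc count was the lowest of the 4 windows for Tbx4 and stood below that of Hoxa for Hoxc10. The highest Tbx4 score in its window was 317.06, next to Gpr84, against 62.04 at Hoxa, 20.91 at Hoxb and 63.65 at Hoxd. Gpr84 was included with this site already known, so the highest scores of the windows are no independent comparison. Inside the clusters the highest Tbx4 score was 20.91 at Hoxc, against 62.04, 11.3 and 7.14.

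For Hoxc10, the highest score within 500 kb was 178.68 at Hoxc, at the same known site, against 48.91 at Hoxa, 17.26 at Hoxb and 35.74 at Hoxd. Inside the clusters it was 43.3 at Hoxc, against 48.91, 17.26 and 16.39. A Tbx4 summit with a Hoxc10 partner was found inside Hoxc, Hoxa and Hoxb, 1 in each, and none inside Hoxd. Of the 9 Hoxc genes 1 held a Tbx4 summit and 3 held a Hoxc10 summit. Of the 30 Hox genes of the other clusters, 3 held a Tbx4 summit and 7 a Hoxc10 summit. Over all 21887 protein-coding genes the shares were 7.37% for Tbx4 and 2.18% for Hoxc10, with gene length not taken into account. The clusters were not compared by a test.

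**Figure D4:**
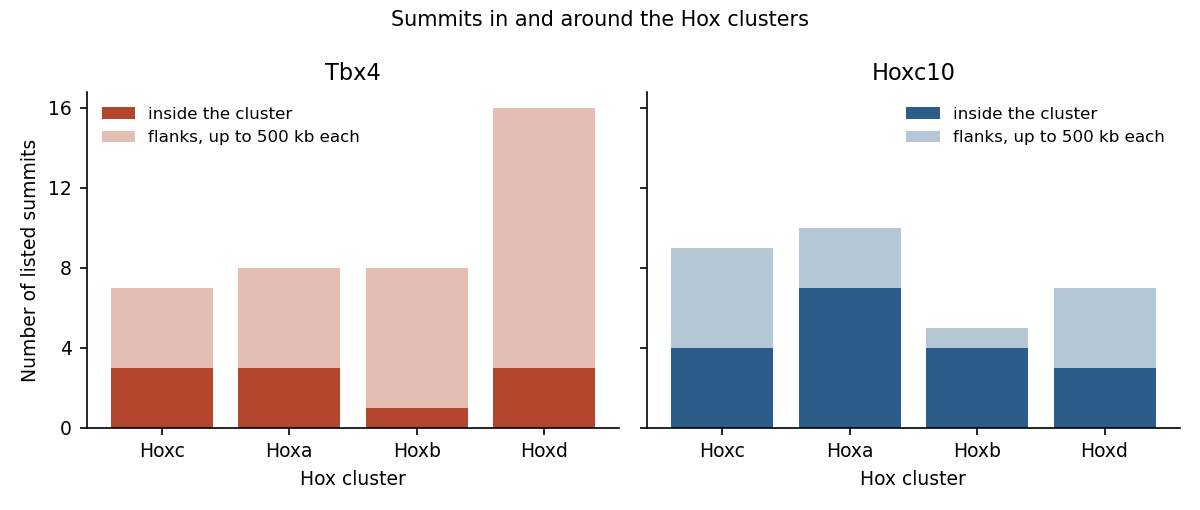
Number of listed Tbx4 (left) and Hoxc10 (right) summits inside each Hox cluster (dark) and in the flanks up to 500 kb on each side (pale), with bars starting at 0. The Hoxc window has 7 Tbx4 and 9 Hoxc10 summits, and the counts of the other windows run from 8 to 16 and from 5 to 10.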

How the data were processed

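Per the labels' protocols, hindlimb tissue was fixed with formaldehyde, sheared by sonication and precipitated with an antibody. Per the submitters' processing notes, Bowtie2 2.2.6, MACS2 2.1.1.20160309 and HOMER were used on mm10. The deposited score is a −log10 p-value or q-value of MACS2. The authors' selection of the listed summits, their control and any pooling are not stated in the sources used here. The name of the Hoxc10 list carries wording that may mean a limit to sites within 200 bp of Santa Cruz sites. Read depth is unknown.

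Positions are 1-based. Genes and sequences came from RefSeq tables of GRCm38.p6, the build of mm10. A genome sequence was not used here. Each summit was given to the nearest gene body. Summits within 200 bp were called co-bound. The pairing step was also run on simulated partners placed within that distance, and it found them. This checks the step itself and does not show whether a pair reflects joint binding. Densities of whole lists use the span between the first and last summit of each chromosome, and those of the window its full length. The 10 genes, each of their summits and the genes that hold them are named, by rule. The genes, motifs and lists were chosen with earlier results of these data known. Python 3.11.15, pandas 2.3.3 and SciPy 1.17.1 were used. The alternatives were other reaches, pairing distances and score limits.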

Additional observations from a re-analysis of the deposited data

How the results depend on the processing

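No paired analysis was possible because each factor has 1 sample and no result comes from a test. For the same reason no replicate could be left out. Of 18 alternative values, 15 stayed within 1.5 times the main one. With a reach of 250 kb, which ends before Gpr84, the window held 4 Hoxc10 summits in place of 9, and 1 co-bound pair in place of 2. With a reach of 1000 kb, which added no Hoxc10 summit, the Hoxc10 density was 6.47 times that of the list in place of 12.3. Pairing within 100, 500 or 1000 bp, or with the higher-scoring 50% of each list, gave 2 pairs each time. Every summit went to the same gene when the nearer gene end was used. Distance to the gene start was not run for all genes, since the table lists it for Hoxc4 and Gpr84. The unknown depth limits what a missing site can show.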

Other observations

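The peak names carry running numbers of MACS2 that rise along the chromosome, from which it can be seen how many numbered peaks were not listed. Between the first and the last listed summit of the Hoxc window the Tbx4 numbers ran from 14967 to 14979, and 7 of these 13 were listed. This range begins and ends at a listed summit, and without these ends 5 of 11 (45.5%) were listed, against 10.6% of all 45103 numbers. The Hoxc10 numbers ran from 1327 to 1343, and 9 of these 17 were listed, or 7 of 15 (46.7%) without the ends, against 40.1% of all 4026 numbers. These shares were not tested. The sources used here do not say why peaks were left out, apart from the wording in the name of the Hoxc10 list, whose meaning is uncertain. The longest stretches of the window with no listed summit of either factor were 366328 bp between the sites in Atf7 and beside Hoxc11, 231427 bp above the shared site at Gpr84, and 213051 bp between Hoxc4 and Nfe2.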
